A study of Mus musculus with 107 samples.

Results

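The genes described here build the hair shaft and its surrounding sheath, together with a few genes that act in the hair follicle. They were taken by gene symbol, from the platforms' annotation of probe sets with 1 gene: every keratin-associated protein gene (Krtap), the keratins Krt25 to Krt28, Krt31 to Krt36, Krt71 to Krt75 and Krt81 to Krt86, and Tchh, Padi3, Dsg4, Msx2, Hoxc13, Foxn1 and Crym. This gave 71 of the 45265 probe sets on a pair of Affymetrix mouse arrays, 54 on array A and 17 on array B, which name 64 of the 18194 genes read by probe sets of 1 gene. They were taken by symbol and not by their measured values, but the list was drawn up with earlier results of these data known. Krt74, Krt85 and Dsg4 were not analysed here, and 6 further probe sets, 4 on array A and 2 on array B, that name a Krtap gene together with another gene were left out. Of the members, 47 probe sets on array A (44 genes) and 16 on array B (16 genes) had a mean signal of at least 100 and were analysed, which covers 58 of the 64 genes. The 8 dim probe sets left out included the only ones of Krt82, Krtap5-3, Krtap6-3, Krtap9-3, Krtap19-2 and Krtap19-3.

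The study measured gene expression in the ear skin of mice 24 h after sulfur mustard, a blistering agent that alkylates DNA and protein, with or without a drug given beforehand. Mustard (0.08 mg in 5 µL of methylene chloride) was put on the right ear, and the left ear of these animals received methylene chloride alone and is called the vehicle ear. Right ears received mustard with no pretreatment named (5 ears), or mustard 15 min after a drug in ethanol. The drugs were dimercaprol, a dithiol metal chelator (6.25 mg, 6 ears), indomethacin, an inhibitor of the cyclooxygenases (1.34 mg, 6 ears), and octylhomovanillamide, a relative of capsaicin (0.6 mg by the treatment label and 0.585 mg by the protocol, 5 ears). These 22 right ears and 21 vehicle ears were measured on both arrays. Animals without mustard, measured on array A alone, were untreated (naive, 5 ears of 3 animals) or had ethanol on the left ear (3 ears) and dimercaprol (4 ears), indomethacin (4 ears) or octylhomovanillamide (5 ears) on the right ear. The labels name no strain, age, sex or batch. The ears differ in side wherever mustard is compared with vehicle and wherever a drug alone is compared with ethanol. Pretreated ears received ethanol that mustard ears are not labelled with. Side and ethanol therefore cannot be told apart from the treatments in these comparisons. The labels call each ear a separate sample, and p-values measure the spread between ears. The epidermal marker genes Krt1, Krt2, Krt5, Krt10, Krt14, Flg and Lor were all measured above the minimum.

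Hair follicles cycle through growth (anagen), regression (catagen) and rest (telogen). The cells that make a shaft are present only in growth. Cells leaving the matrix first form the inner root sheath, which carries its own keratins and the granule protein trichohyalin. The shaft then fills with type I and type II hair keratins, which pair into filaments, and with the small keratin-associated proteins, which cross-link those filaments through cysteine. Transcription factors such as Msx2, Hoxc13 and Foxn1 act above these structural genes in the follicle.

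Many members share a TATAAA element just before their start site. Of the 64 genes, 55 had a promoter in the RefSeq table (build GRCm38.p6). TATAAA on the gene's own strand within the last 50 bases before the start was found in 33 of these 55 (60.0%), against 863 of 32817 promoters in the table (2.63%). Either strand over the same bases gave 60.0% and 3.51%. By role, it was found in 6 of 7 inner root sheath keratins, 4 of 5 type I hair keratins and 23 of 36 keratin-associated proteins. It was found in 0 of 2 type II hair keratins, 0 of 2 transcription factors and neither Tchh nor Padi3. Many members lie side by side in clusters, 22 on chromosome 11, 20 on chromosome 16 and 10 on chromosome 15, and neighbours descend from common ancestors, so they are not independent examples. The 120 bases before the start are shown for 6 members whose signals had wide ranges and moved together between ears, with TATAAA in capitals, and then for Krt84 and Foxn1, which did not vary with them, in which these letters were not found. The element and the shared variation do not always go together, so 2 counterexamples follow: Tchh, which varied with the others and has no TATAAA in this window, and Krtap13, which did not vary with them and has one.
Krt25 (chr11:99322952-99323071, minus strand): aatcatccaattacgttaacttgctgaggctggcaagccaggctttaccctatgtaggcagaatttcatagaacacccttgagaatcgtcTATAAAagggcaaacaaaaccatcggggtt
Krt28 (chr11:99374904-99375023, minus strand): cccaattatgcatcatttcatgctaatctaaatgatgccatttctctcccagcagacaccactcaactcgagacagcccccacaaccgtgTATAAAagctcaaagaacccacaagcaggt
Krt34 (chr11:100041555-100041674, minus strand): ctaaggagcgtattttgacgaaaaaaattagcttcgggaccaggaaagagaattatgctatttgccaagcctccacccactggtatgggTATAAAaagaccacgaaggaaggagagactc
Krtap8-1 (chr16:89487953-89488072, minus strand): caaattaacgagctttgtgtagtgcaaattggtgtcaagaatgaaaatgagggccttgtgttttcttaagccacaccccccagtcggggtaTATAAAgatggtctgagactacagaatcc
Krtap11-1 (chr16:89571184-89571303, minus strand): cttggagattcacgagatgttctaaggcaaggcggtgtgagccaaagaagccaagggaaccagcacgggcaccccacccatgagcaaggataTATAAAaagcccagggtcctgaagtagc
Krtap4-7 (chr11:99644090-99644209, minus strand): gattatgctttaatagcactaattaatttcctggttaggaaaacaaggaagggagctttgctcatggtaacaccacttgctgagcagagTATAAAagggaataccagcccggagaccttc
Krt84 (chr15:101532821-101532940, minus strand): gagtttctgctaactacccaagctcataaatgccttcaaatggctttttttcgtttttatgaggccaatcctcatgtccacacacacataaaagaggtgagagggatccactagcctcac
Foxn1 (chr11:78386609-78386728, minus strand): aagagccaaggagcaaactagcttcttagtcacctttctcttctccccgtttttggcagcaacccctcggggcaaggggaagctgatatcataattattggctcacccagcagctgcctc
Tchh (chr3:93442210-93442329, plus strand): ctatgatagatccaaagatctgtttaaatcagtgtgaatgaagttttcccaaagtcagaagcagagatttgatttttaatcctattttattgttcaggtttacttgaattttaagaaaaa
Krtap13 (chr16:88751629-88751748, minus strand): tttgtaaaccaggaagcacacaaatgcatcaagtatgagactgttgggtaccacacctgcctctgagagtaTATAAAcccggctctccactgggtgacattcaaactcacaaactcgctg
The first base of TATAAA lies 30 bases before the start in Krt25 and Krt28, 31 in Krt34 and Krtap4-7, 29 in Krtap8-1, 28 in Krtap11-1 and 49 in Krtap13. A match of letters is a description of the sequence and was not tested as a binding site.

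Signals are given as deposited MAS5 signals scaled so that each array has a trimmed mean of 500. Differences are log2 of (scaled signal plus 16), a scale on which 1 is a doubling of a bright gene and on which changes of dim genes are understated. Levels of different probe sets are not compared. In whole-biopsy RNA, fewer follicle cells of a kind and less RNA per cell cannot be told apart.

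Among the 21 vehicle ears, which all had the same local treatment, hair genes differed widely. The other ear of these animals, measured in 17 of them, had mustard alone or after a drug. Its part in the spread was not tested. Krt25, a type I keratin of the inner root sheath, had a signal of 4.05 in the lowest vehicle ear, 276 at the median and 3327 in the highest. Its neighbour Krt28 ranged from 46.9 through 452 to 3514 on array B. Krt33a, a type I keratin of the shaft cortex, ranged from 5.06 through 180 to 1791. All 3 spread widely among ears of 1 local treatment. Krt34 ranged from 6.68 through 113 to 916, and its type II counterpart Krt86 from 18.2 through 181 to 1042. The lowest signals of Krt25, Krt33a, Krt34 and, further below, Tchh are under the added 16 and are not told from background, so no fold is given for them. Among the keratin-associated proteins, Krtap11-1 ran from 54.8 through 647 to 5896, Krtap4-7 from 32.2 through 503 to 3455 and Krtap22-2 from 34.8 through 1046 to 4300. Tchh, which encodes trichohyalin, ran from 14.5 through 143 to 1312. The SD over vehicle ears had a median of 0.99 (log2) over the 47 members on array A, against 0.26 over all 15925 probe sets analysed there. It exceeded 1 in 23 of the 47 members and in 0.421% of all probe sets. On array B the medians were 1.26 for the 16 members and 0.41 for 17250 probe sets, and 11 members and 2.50% of all exceeded 1.

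The members varied together from ear to ear. A hair score was computed for each ear as the mean over members of log2 signal minus that member's mean in vehicle ears. It ran from −1.16 to 1.55 over vehicle ears on array A (SD 0.96) and from −1.64 to 1.96 on array B (SD 1.18). Both arrays were hybridised with RNA of the same ears but carry different probe sets, and their scores had a Pearson r of 0.987 over 43 ears. The r of each member with the score of the other member genes on its array, over the 21 vehicle ears, had a median of 0.92 on array A and 0.95 on array B. It was over 0.8 in 35 of 47 members on array A, against 14 of 15878 other probe sets (0.0882%), and in 13 of 16 on array B, against 12 of 17234 (0.0696%). These correlations are descriptions of 21 ears, and genes are not independent replicates.

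By role, the 7 inner root sheath keratins were the most uniform, with r from 0.95 to 0.98. Of the 36 keratin-associated probe sets 28 were over 0.8, led by Krtap8-1 (0.99), a glycine- and tyrosine-rich member, and Krtap4-16 (0.98), of a cysteine-rich family. Type I hair keratins had r from 0.66 to 0.98 with 6 of 7 over 0.8, and type II from 0.19 to 0.98 with 3 of 4 over 0.8. Tchh stood at 0.97 and Padi3, the enzyme that converts arginines of trichohyalin to citrulline, at 0.89. Krt75, of the companion layer next to the sheath, was at 0.84 with a narrow range, from 218 to 861. Crym, a thyroid hormone binding protein found in follicles, was at 0.84 and ranged from 37.6 to 433.

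**Figure D1:**
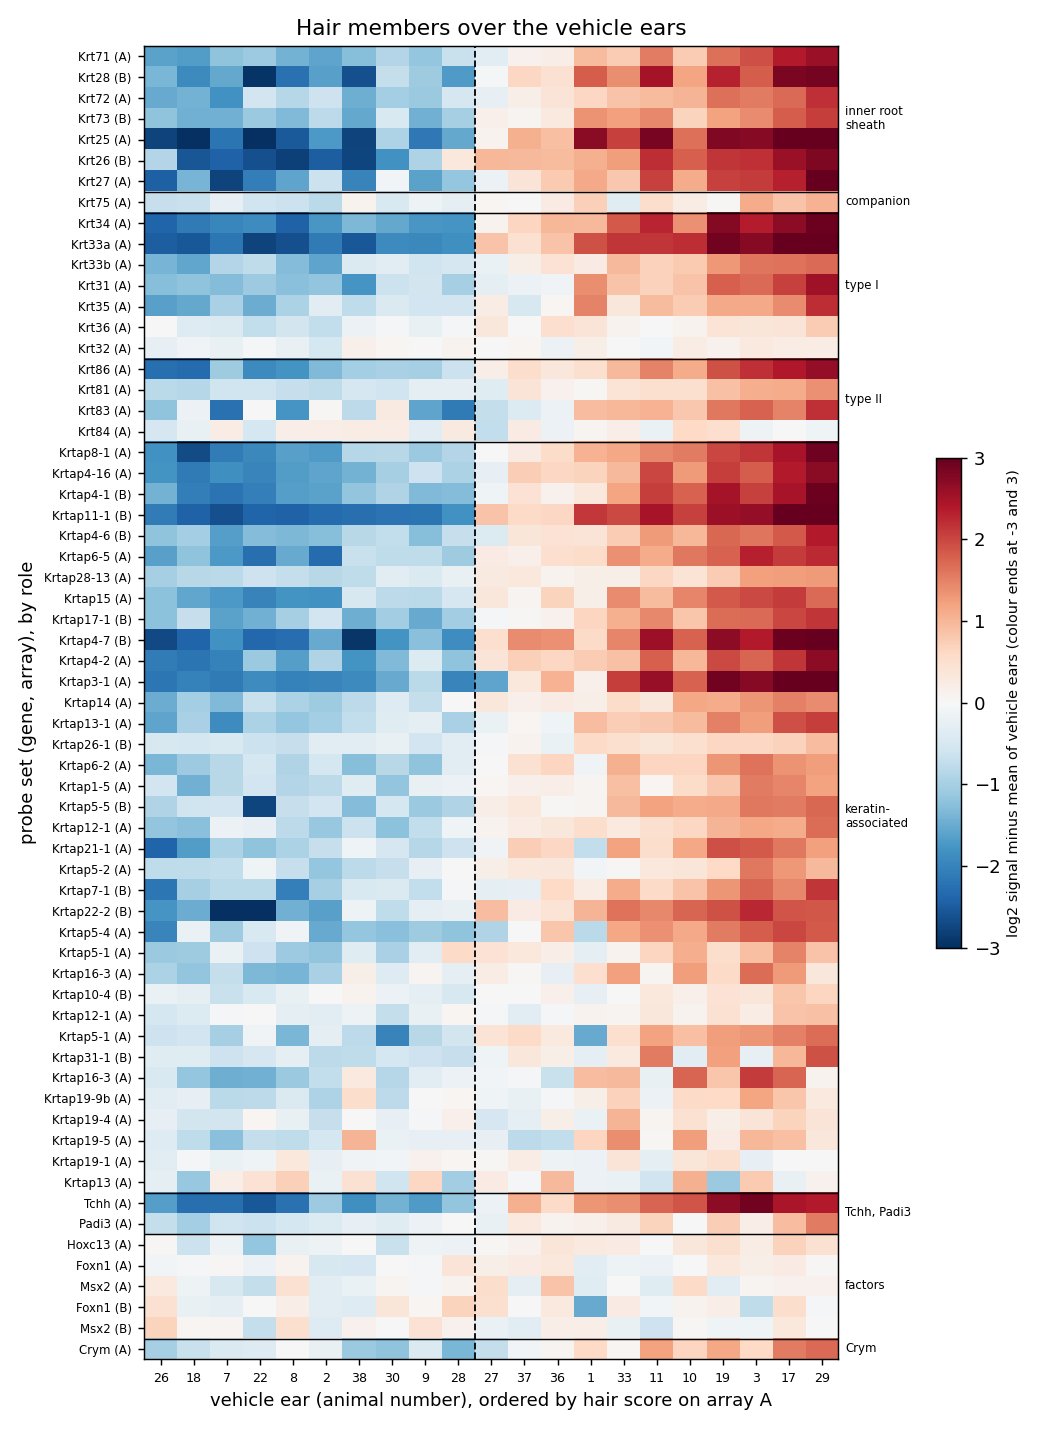
Each row is 1 hair probe set (gene, and array A or B), grouped by role, and each column 1 of the 21 vehicle ears ordered by hair score on array A; colour is log2 signal minus the row's mean, from −3 (blue) to 3 (red). Most rows turn from blue to red from left to right, the rows of Krt84, Krtap19-1, Krtap13, Msx2 and Foxn1 do not, and the dashed line marks the widest step of the score, with 10 ears to its left.

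The widest step in the score lay between the 10 lowest ears and the other 11 on both arrays, between −0.56 and −0.05 on array A and between −0.69 and 0.18 on array B, and the 10 animals were the same. Since the ears were set apart by the members' own score, the following is a description. Exactly these 10 ears were the lowest in 20 of 47 members on array A and in 11 of 16 on array B, and the step there was the member's own widest in 9 and 4. The widest such steps were those of Krtap11-1, at 54.8 to 110 in these 10 ears and 647 to 5896 in the other 11 (2.39 log2 units), and Krt33a, at 5.06 to 24.2 and 180 to 1791 (2.29). The narrowest were those of Krtap26-1 (0.02) and Krtap13-1 (0.08), which ran on from 1 set of ears to the other, so the members differ in how far the sets stand apart. The members also ran together inside each set of ears. Within the 11 higher ears the median r with the other members was 0.86 on array A and 0.89 on array B. Within the 10 lower ears, where many members were near the bottom of their range, it was 0.55 and 0.47.

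A smaller number of members followed the score less closely or not at all. Krt84, a type II keratin known from hard keratin of the tongue and nail, had an r of 0.19 and ranged from 138 to 373. Krtap13 had 0.06, with dim signals from 19.0 to 145, and Krtap19-1 had 0.28. Krt32, a keratin of the shaft cuticle, followed it with 0.66 over the narrowest range of its class, from 415 to 741, and Krtap19-5 with 0.66 over 52.0 to 410. Hoxc13, a homeobox factor of the hair matrix, followed it with 0.77 and signals from 60.0 to 258. For scale, 1.36% of other probe sets on array A were over 0.5. The other transcription factors were lower. Foxn1, the factor missing in nude mice, had 0.32 on array A and −0.05 on array B. Msx2 had 0.17 and −0.18. Over vehicle ears Foxn1 ran from 148 to 291 on array A and Msx2 from 148 to 468. Of the members with r over 0.8, 27 of 39 with a promoter in the table had TATAAA in the last 50 bases, and 4 of 10 of the other analysed genes did.

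**Figure D2:**
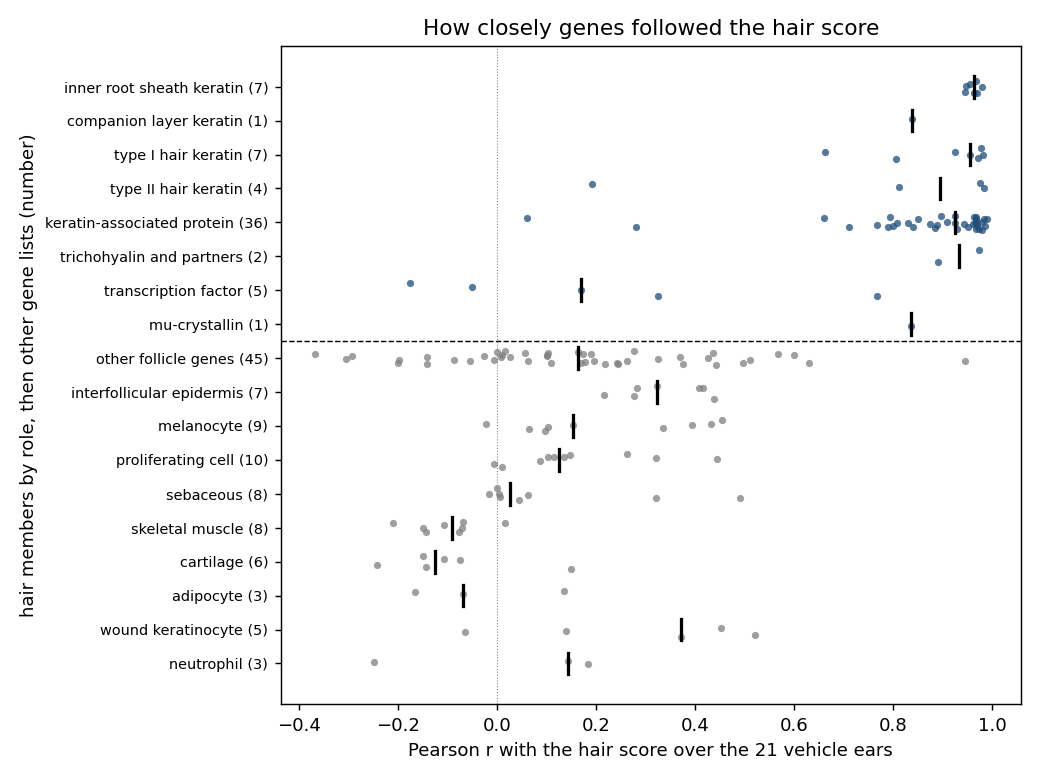
Each point is 1 hair probe set (blue, by role; r with the score of the other members) or 1 gene of another list (grey; r with the hair score), over the 21 vehicle ears, with list medians as black bars. Inner root sheath keratins lie at 0.95 to 0.98, while the other lists have medians from −0.13 to 0.37.

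Over vehicle ears the array A score had an r of −0.40 with log2 array brightness (2% trimmed mean before scaling) and of 0.16 with the log2 ratio of the 3' to the 5' Gapdh control probe set. Brightness ran from 66.9 to 268 over the 64 array A hybridisations and from 18.8 to 52.0 over the 43 on array B. Mustard ears were dimmer (median 117) than vehicle ears (median 174) on array A, and their Gapdh ratio reached 0.78 against at most 0.24 in vehicle ears. Values from fits that include brightness or the Gapdh ratio are given beside the calls they ended.

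Genes outside the list that followed the score most closely were picked by their r over the vehicle ears, the 10 highest on each array. On array A they were Gm10229 (0.97), Gm11567 (0.96), Gm10228 (0.95), S100a3 (0.94), Ly6g6d (0.93), Gprc5d (0.91), Slc39a8 (0.84), Fbp1 (0.81), Ctse (0.81) and Pemt (0.77). On array B they were Gm11559 (0.95), Gm11563 (0.95), Vsig8 (0.94), Prr9 (0.93), Lrrc15 (0.88), Calhm4 (0.86), Ly6g6g (0.81), Tchhl1 (0.75), Spink12 (0.69) and Arhgef18 (0.68). The median r was 0.02 over 9598 genes on array A and −0.02 over 8083 on array B. The 5 predicted genes each lie among Krtap genes: of the 6 nearest protein-coding genes 4 were Krtap genes for Gm10229, Gm10228 and Gm11563 and 3 for Gm11567 and Gm11559. S100a3 encodes a calcium-binding protein of the hair cuticle, and Tchhl1 is the neighbour and relative of Tchh.

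Other genes known from the follicle mostly did not follow. Of a list of 55 growth signals, receptors, transcription factors and layer markers, 45 were analysed, with a median r of 0.16 and 5 over 0.5: S100a3, Krt17 (0.63), Vdr (0.60), Dlx2 (0.57) and Cux1 (0.51). Shh, the signal that starts follicle growth, had 0.28, and Lef1, a partner of beta-catenin, 0.17. Genes of proliferating cells had a median r of 0.12 (10 genes) and those of pigment cells 0.15 (9 genes), with 0 over 0.5 in either list. Markers of interfollicular epidermis were somewhat higher, with a median of 0.32 (7 genes). Wound keratinocyte genes had a median of 0.37 (5 genes) with 1 over 0.5, Krt6a (0.52). Markers of sebaceous gland (0.03, 8 genes), neutrophils (0.14, 3 genes), fat (−0.07, 3 genes), muscle (−0.09, 8 genes) and cartilage (−0.13, 6 genes) had 0 over 0.5.

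Ears lay on both sides of the vehicle mean of the hair score in every group but indomethacin without mustard (4 of 4 below) and octylhomovanillamide without mustard (5 of 5 above). The hair score of the 5 mustard ears on array A was −0.78, −0.75, −0.30, −0.07 and 1.51, the last from animal 36. After dimercaprol and mustard it ran from −1.05 through −0.26 to 1.19 over 6 ears, and after indomethacin and mustard from −1.13 through 0.44 to 1.67 over 6 ears. After octylhomovanillamide and mustard the 5 ears lay at −0.90, −0.80, −0.003, 0.10 and 0.60. All 4 mustard groups overlapped each other and the vehicle ears. Array B gave the same picture, with mustard ears from −1.14 to 1.84. Single members showed the same overlap. Krtap8-1 had medians of 441 in mustard ears (243 to 4455), 435 after dimercaprol and mustard (150 to 2679), 1391 after indomethacin and mustard (162 to 5124) and 613 after octylhomovanillamide and mustard (146 to 1304), against 648 in vehicle ears. Krt25 read 74.8, 85.5, 136, 229 and 2324 in mustard ears, the last again animal 36. Tchh read 69.4, 119, 169, 197 and 856 there, and Padi3 had medians from 143 to 178 in the 4 mustard groups. The 4 groups overlapped in each of these genes.

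**Figure D3:**
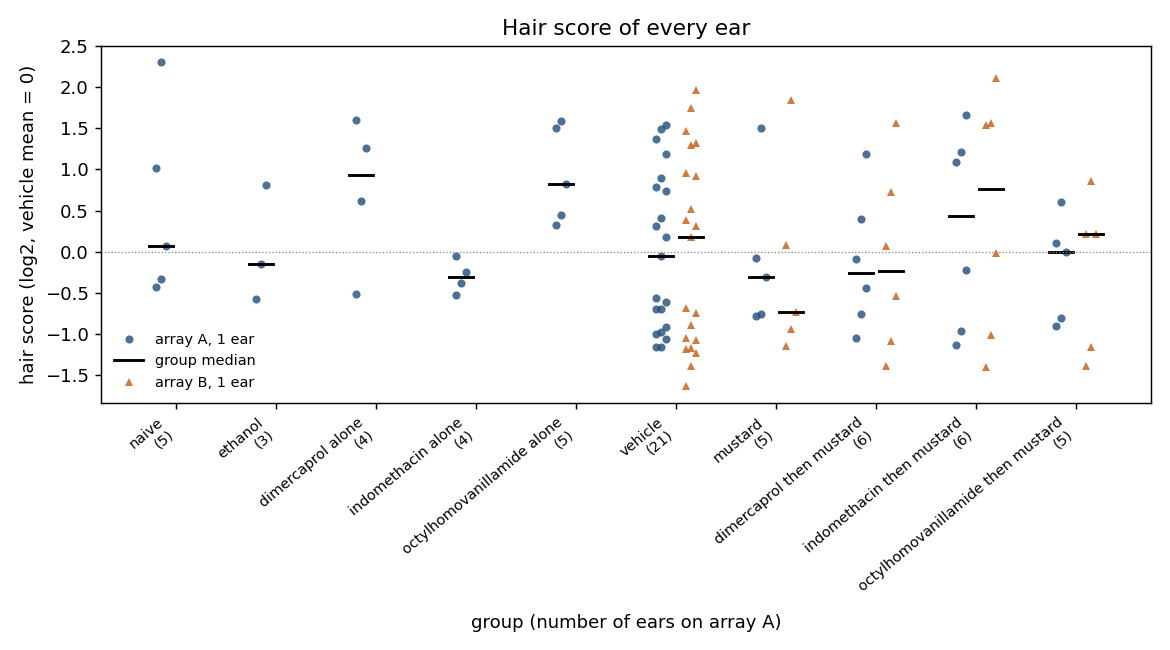
Hair score (log2, mean over members relative to the vehicle mean) of every ear in the 10 groups, on array A (circles) and array B (triangles), with group medians as black bars. The groups with mustard overlap the vehicle ears, which run from −1.16 to 1.55 on array A, and 1 naive ear stands at 2.30.

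Both ears were measured in 17 animals of the mustard series. The left and right scores had an r of 0.37 on array A and 0.41 on array B, and 0.39 and 0.46 with group means removed. Without the 2 animals farthest from the median left score, the r as measured was 0.28 on each array, and with group means removed it was 0.56 and 0.61, so its size depends on 2 animals and on the group means. In 13 of 17 animals both ears were on the same side of the vehicle mean. In 4 animals the ears differed by more than 1 log2 unit on array A: animal 3 (vehicle 1.36, mustard −0.75), animal 17 (vehicle 1.49, indomethacin and mustard −0.96), animal 29 (vehicle 1.55, octylhomovanillamide and mustard 0.10) and animal 36 (vehicle 0.31, mustard 1.51). In 3 of these 4 the treated ear was the lower one. On array B 6 animals differed by more than 1, these 4 and animals 18 (indomethacin and mustard, treated ear higher by 1.16) and 37 (mustard, −1.04). Across all 17 the right ear was higher on array A in 7: 1 of 4 with mustard, 3 of 4 with dimercaprol, 2 of 4 with indomethacin and 1 of 5 with octylhomovanillamide. On array B the sign differed in animal 22 alone (indomethacin and mustard, −0.14 on array A and 0.24 on array B). The naive animal 503 had scores of 0.06 on the left and 1.02 on the right with no treatment on either ear, and naive animal 502 had −0.33 and −0.43.

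For each probe set, the r between left and right ears with group means removed had a median of 0.29 over members on array A, against 0.12 over all probe sets, and 0.36 against 0.07 on array B. It was above 0 in 44 of 47 and 16 of 16 members, against 65.0% and 59.4% of all. Above the 90th percentile of all probe sets, which lay at 0.47 and 0.42, were 2 of 47 members on array A and 4 of 16 on array B. Krtap19-4 had the highest value on array A, 0.50, and Krt32 the lowest, −0.32.

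**Figure D4:**
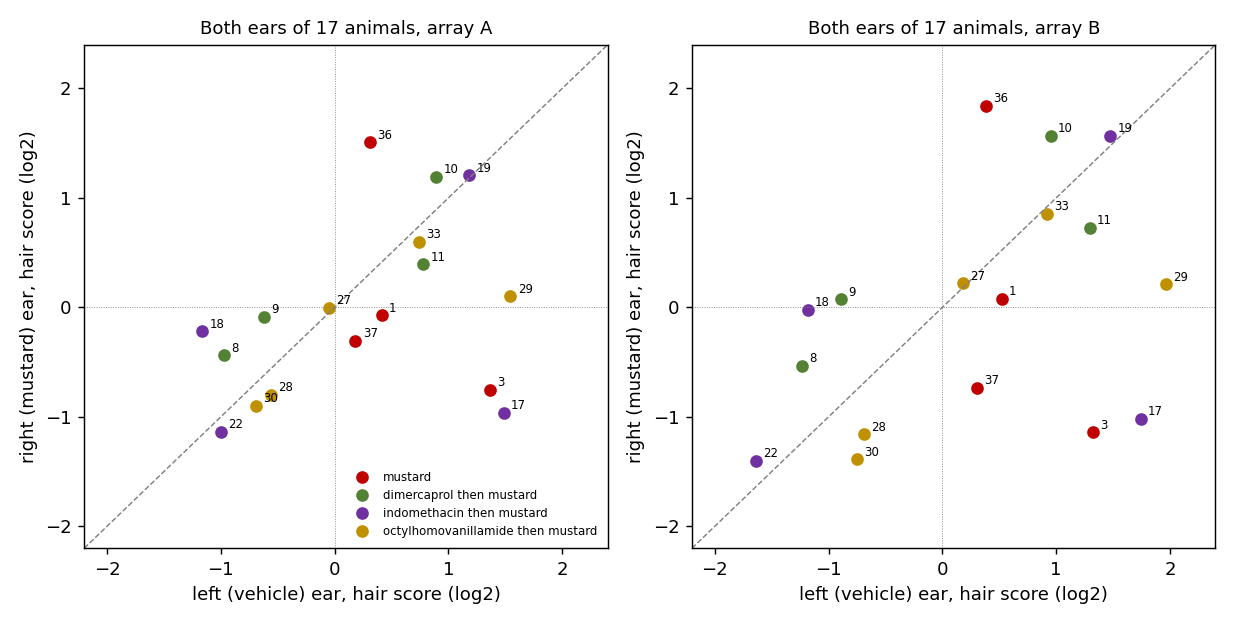
Hair score of the left (vehicle) ear against the right (mustard, with or without a drug) ear of 17 animals, numbered, on arrays A and B; the dashed line marks equal scores. Animals 3, 17, 29 and 36 have ears more than 1 log2 unit apart on both arrays, and animals 18 and 37 on array B.

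Mustard alone was compared with vehicle to ask which genes respond to the agent. On array A 3 of 47 hair members passed the test (limma, Benjamini-Hochberg adjusted p below 0.05), against 42.9% of all probe sets (19.2% higher, 23.7% lower), and on array B 1 of 16, against 26.1% (12.9% higher, 13.2% lower). Krtap13 and Krt84 were higher, Msx2 was lower on array A and Foxn1 was lower on array B. None of the 35 and 13 members that followed the score closely was called. The median log2 difference of the members was −0.06 on array A and −0.16 on array B, and −0.01 and 0.14 over all probe sets. The spread between ears made these differences imprecise: the standard error had a median of 0.45 over members against 0.13 over all probe sets on array A. For 15 of 47 members the 95% interval reached past both −1 and 1, and for 21 it lay within these bounds. Krtap8-1 differed by 0.02 (interval −1.52 to 1.55) and Krt25 by −0.17 (−2.38 to 2.03), so that a change of 2-fold in either direction was not excluded by the interval for these genes.

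Krtap13 read 81.5, 151, 157, 209 and 338 in the mustard ears. In vehicle ears it ran from 19.0 through 57.4 to 145. All mustard ears but that of animal 36 were above every vehicle ear, with a difference of 1.27 ± 0.29 (SE, limma adjusted p = 0.000405). Blocking on the animal, a fit that rests on animals with both ears, gave 0.93 (adjusted p = 0.094). The naive ears, of other animals, read 118, 142, 143, 147 and 151 for Krtap13, within the mustard range, and Krtap13 was also lower in vehicle than in naive ears. Krt84 read 202, 288, 364, 541 and 574 in mustard ears and 138 through 255 to 373 in vehicle ears. The groups overlapped, and only the ears of animals 1 and 3 were above all vehicle ears. The difference was 0.58 ± 0.18 (SE, limma adjusted p = 0.00849). Its adjusted p was 0.074 without animal 1, 0.067 without animal 3 and 0.11 with the Gapdh ratio in the fit, and with no rescaling between arrays the difference was −0.003. With the animal block Krt84 kept its call (0.67, adjusted p = 0.021) and was then the only member called of the 4.

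Msx2 read 126, 136, 145, 155 and 344 in mustard ears on array A, against 148 through 256 to 468 in vehicle ears. Of these ears 3 were below every vehicle ear, and that of animal 36 was above the vehicle median. The difference was −0.54 ± 0.20 (SE, limma adjusted p = 0.024). The call ended with the animal block (−0.57, adjusted p = 0.085), with brightness (0.24) or the Gapdh ratio (0.22) in the fit, and without animal 1 (0.078), 3 (0.10), 5 (0.071) or 37 (0.062). The probe set of Msx2 on array B was not called (−0.15 ± 0.19, adjusted p = 0.58). Foxn1 on array B read 439, 500, 569, 668 and 700 in mustard ears and 312 through 958 to 1486 in vehicle ears, so the groups overlapped at the low end. The difference was −0.69 ± 0.19 (SE, limma adjusted p = 0.00586). It was −0.10 with the animal block (adjusted p = 0.81), −0.41 with brightness (0.28) and −0.35 with the Gapdh ratio (0.38), and its array A probe set was not called (−0.19 ± 0.12, adjusted p = 0.20). For both factors the test called the probe set on 1 array only.

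Other follicle genes were counted in the same fit. Of 45 analysed, 7 were higher and 20 lower in mustard ears, with a median difference of −0.27, beside 19.2% higher and 23.7% lower over all probe sets on array A and 12.9% and 13.2% on array B. The difference between these counts and those of the hair members was not tested. Higher were Gjb6, a gap junction protein (2.52 ± 0.30), Krt17, a keratin of the outer sheath that is also made in injured epidermis (2.00 ± 0.20), Shh (1.38 ± 0.45, on array B), Tgm3, a cross-linking enzyme of sheath and epidermis (0.89 ± 0.20), Cdh3, Runx1 and Jag1. Lower were Gata3, a factor of the inner root sheath (−1.36 ± 0.19), Krt15 of the bulge (−1.26 ± 0.17), Corin of the dermal papilla (−1.25 ± 0.31), Ptch1, the Shh receptor (−1.15 ± 0.15), Trps1 (−1.01 ± 0.18), Lhx2 (−0.88 ± 0.16) and Lgr5, a stem cell receptor (−0.63 ± 0.17), with limma adjusted p from 9.12e-08 to 0.00295 for these 7. S100a3, the gene of this list that followed the hair score, was not called (0.17 ± 0.47, adjusted p = 0.81). In the same comparison 8 of 10 proliferation genes were lower (23.7% of all on array A) and 5 of 5 wound keratinocyte genes were higher (19.2% of all). Their part in the values of the hair members was not tested. All these gene lists were chosen with earlier results of these data known.

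**Figure D5:**
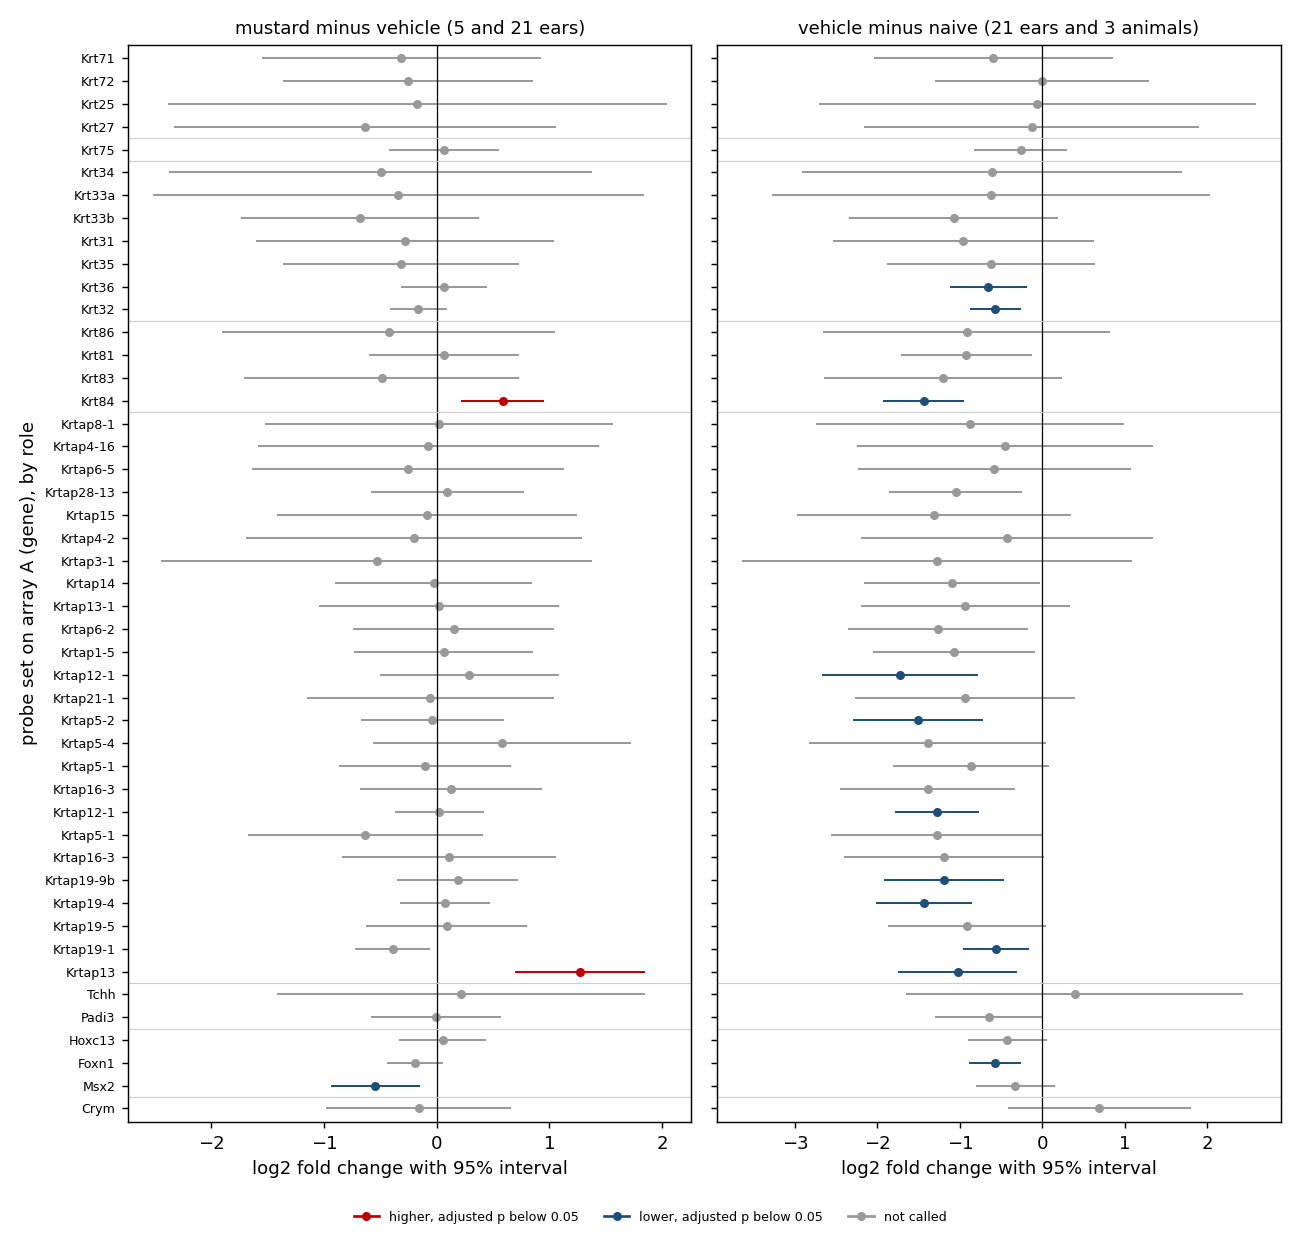
Log2 fold change with its 95% interval for the 47 hair probe sets on array A, by role, in mustard against vehicle (left) and vehicle against naive (right); red marks members called higher, blue called lower and grey not called. On the left 3 members are called and the wide grey intervals belong to members that varied most between vehicle ears, and on the right 11 are called lower.

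Ears pretreated with a drug were compared with ears given mustard alone, at doses that differ between the drugs. After dimercaprol 0 of 47 hair members were called on array A (26.9% of all probe sets) and 1 of 16 on array B (16.5%, of which 9.37% higher). That member was Foxn1, from 797 through 1034 to 1086 in 6 ears against 439 to 700 in mustard ears. The groups did not overlap, and the difference was 0.75 ± 0.23 (SE, limma adjusted p = 0.021). It was 0.13 with the animal block (adjusted p = 0.91), and the call also ended without animal 5 (0.070) or animal 37 (0.065) and with brightness (0.41) or the Gapdh ratio (0.44). After indomethacin 0 of 47 (1.87% of all) and 0 of 16 (3.17%) were called. On each array 1 member had an unadjusted limma p below 0.05, beside 3094 of all 15925 probe sets on array A and 3181 of 17250 on array B. After octylhomovanillamide 0 of 47 (17.1%) and 0 of 16 (9.57%) were called. There 0 and 1 members had an unadjusted limma p below 0.05, beside 4997 of all 15925 and 4221 of all 17250 probe sets. These comparisons share the 5 mustard ears, so each holds the high ear of animal 36. Without it 3 members were called after dimercaprol and 1 each after indomethacin and octylhomovanillamide. The share of all probe sets called without that ear is not given here, so these counts are not a result about the members. The member medians were −0.08, 0.34 and −0.19 on array A, in the order of the drugs above, and 0.00, −0.01 and 0.02 over all probe sets. On array B the member medians were 0.09, 0.69 and −0.10, and −0.14, −0.07 and −0.09 over all probe sets.

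Against vehicle, dimercaprol and mustard called 0 members on either array (3.04% and 0.73% of all), and so did octylhomovanillamide and mustard (2.77% and 0.539%). The unadjusted limma p was below 0.05 for 3 and 2 members on array A, beside 2619 and 2353 of all 15925 probe sets. On array B it was so for 0 members, beside 1602 and 1468 of all 17250. Indomethacin and mustard called 2 of 47 on array A (36%, of which 16.3% higher) and 0 of 16 on array B (12.8%). On array B 0 members had an unadjusted limma p below 0.05, beside 4052 of all 17250 probe sets. The 2 were Krt84, from 315 through 441 to 622 over 6 ears (0.83 ± 0.17, limma adjusted p = 0.000137), and Krtap13, from 139 through 179 to 296 (1.38 ± 0.27, adjusted p = 6.97e-05). Both overlapped the vehicle ears only at their lowest values. Both calls held with the animal block, brightness or Gapdh ratio in the fit and without rescaling. Refits that leave out 1 ear of either group were not run for these calls. The limit set by the minimum signal, given above for Krtap13, applies here too. Neither gene was called in the other pretreated groups. There Krtap13 ran from 74.1 through 128 to 154 after dimercaprol and read 41.4, 136, 142, 148 and 160 after octylhomovanillamide. It differed from vehicle by 0.75 ± 0.27 (limma adjusted p = 0.12) and 0.78 ± 0.29 (0.16) in these 2 groups. Set against mustard alone, Krtap13 differed by −0.52 ± 0.35 (dimercaprol), 0.11 ± 0.35 (indomethacin) and −0.50 ± 0.37 (octylhomovanillamide), with limma adjusted p of 0.28, 0.90 and 0.37. After indomethacin and mustard, 39 of 47 and 15 of 16 member differences from vehicle were above 0 (medians 0.26 and 0.46). After dimercaprol and mustard 14 and 7 were (−0.11 and −0.09), and after octylhomovanillamide and mustard 9 and 1 (−0.20 and −0.29). Medians over all probe sets lay from −0.03 to 0.04. Since members vary together, these are not counts of independent genes.

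Each drug without mustard was compared with ethanol. Ethanol was on left ears and the drugs on right ears, so drug and side cannot be told apart. Of the hair members 0 were called with any drug, and the background was 0% in all 3 comparisons. The unadjusted limma p was below 0.05 in 3 members with dimercaprol, 1 with indomethacin and 9 with octylhomovanillamide. Over all 15925 probe sets it was so in 772, 1116 and 992. The members leaned to 1 side without passing the test. With dimercaprol 43 of 47 differences were above 0 (median 0.63, all probe sets 0.01), with octylhomovanillamide also 43 (median 0.88, all 0.02), and with indomethacin 11 (median −0.20, all 0.02). Members vary together from ear to ear, so these counts are not of independent genes. Krt25 read 46.6, 85.1 and 1258 in the 3 ethanol ears. It read 39.8, 593, 1025 and 1882 with dimercaprol, 14.9, 17.8, 78.5 and 178 with indomethacin, and 323, 508, 872, 1627 and 1898 with octylhomovanillamide. All groups overlapped the ethanol ears. The difference with octylhomovanillamide was 2.12 ± 1.19 (SE, limma adjusted p = 0.83). Tchh and Krt27, a sheath keratin, differed by 2.35 ± 1.07 (adjusted p = 0.78) and 2.54 ± 0.92 (adjusted p = 0.69) there.

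Vehicle ears were compared with naive ears over all array A samples, the ears of a naive animal averaged. These are 2 sets of animals, numbered apart, so methylene chloride and any difference between the sets cannot be told apart. In this comparison 11 of 47 hair members were lower and 0 higher in vehicle ears, against 14.2% of all probe sets lower, 7.33% higher and 21.5% called in either direction. The member median was −0.92, against −0.07 over all probe sets, and 45 of 47 differences were below 0. Members vary together from ear to ear, so these are not independent genes. The median hair score was 0.06 over the 5 naive ears and −0.05 over the 21 vehicle ears, and the naive ear of animal 501 stood at 2.30. The other naive ears stood at −0.43, −0.33, 0.06 and 1.02, on both sides of the vehicle mean. In the fit animal 501 counted as 1 of 3 naive animals. The lean of the members is therefore not shown to be shared by the naive animals. The share of that ear in the member median was not tested. The called members were Krt84, Krt32, Krt36, Foxn1, both probe sets of Krtap12-1, and Krtap5-2, Krtap13, Krtap19-1, Krtap19-4 and Krtap19-9b. Of these, Krtap13 passed the minimum signal only through groups other than vehicle, as given above.

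Krt84 read 368, 374, 856, 924 and 1025 in the naive ears, and all but the first were above the highest vehicle ear (373). The difference was −1.44 ± 0.25 (SE, limma adjusted p = 7.37e-05). The other ears without mustard were also high, at 426, 588 and 1052 with ethanol and from 331 to 816 with the drugs. Foxn1 on array A read 307, 329, 334, 337 and 352 in naive ears, above every vehicle ear (148 to 291), with a difference of −0.57 ± 0.15 (adjusted p = 0.00609). Krt32 read 656, 862, 909, 938 and 1063 against at most 741 in vehicle ears (−0.57 ± 0.15, adjusted p = 0.00513). In Foxn1 the naive and vehicle ears did not overlap, and in Krt84 and Krt32 1 naive ear fell within the vehicle range. The call of Foxn1 ended without rescaling (limma adjusted p = 0.46). That of Krt32 ended without rescaling and also without animal 501 (limma adjusted p up to 0.49). Krt84 kept its call in all 12 settings.

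Several Krtap calls ended without 1 naive ear. Animal 501, of which the left ear alone was measured, had the highest hair score of the study, 2.30. Krtap19-4 read 1440 in that ear and 149, 248, 254 and 345 in the others, against 87.8 through 155 to 323 in vehicle ears. Krtap19-9b read 2088 there and 247 to 539 in the others, within the vehicle range of 140 to 648. Krtap5-2 read 1371 there and 218 to 588 in the others (vehicle 67.8 through 175 to 544), and the brighter probe set of Krtap12-1 read 2093 there and 458 to 1183 in the others (vehicle 260 through 423 to 820). In each of these genes animal 501 was above every other naive and vehicle ear. Krt36 had a naive median of 136 (104 to 299) and Krtap19-1 one of 319 (205 to 393), against 111 and 186 in vehicle ears, with −0.65 ± 0.23 (limma adjusted p = 0.034) and −0.56 ± 0.20 (0.036). Krt36 lost its call in 5 of 11 settings and Krtap19-1 in 6 of 11. With brightness in the fit their adjusted p was 0.074 and 0.074, without rescaling 0.37 and 0.50, and with quantile normalization 0.19 and 0.13. Without animal 501, 3 of 47 members were called: Krt84 (−1.27, adjusted p = 0.00327), Foxn1 (−0.57, 0.031) and 1 probe set of Krtap12-1 (−0.81, 0.045), and Krtap19-4 was then at −0.60 (0.14) and Krtap19-9b at −0.37 (0.57). That Krtap12-1 probe set kept its call in all 12 settings. The calls of Krtap13 and Krtap19-1 ended without any 1 of the 3 naive animals, and that of Krtap13 also without rescaling (0.24) and with quantile normalization (0.12). Without animal 502, 14 members were called, and without animal 503, 8. The share of all probe sets called without each naive animal is not given here, so these counts are not a result about the members.

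Some members are near-identical copies. The Krtap4, Krtap5, Krtap6 and Krtap19 families and the pair Krt33a and Krt33b share sequence, so their probe sets can read more than 1 gene, and the probe sets with names ending in _s_at or _x_at (such as those of Krtap11-1 and Krtap5-1) are designed on shared sequence. The separate behaviour of such members is uncertain to that extent. Where a gene had more than 1 analysed probe set on array A, both had positive r with the score: 0.92 and 0.81 for Krtap12-1, 0.84 and 0.79 for Krtap16-3, and 0.85 and 0.80 for Krtap5-1.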

How the data were processed

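RNA of 64 ears on array A and 43 on array B was measured. Per the submitters' processing notes the authors used MAS5 (version and settings are not given in the sources used here), and the deposited values are signal intensities per probe set. Brightness differed up to 4.01-fold between array A hybridisations, so signals of an array were multiplied until their 2% trimmed mean was 500. Probe sets with a mean of at least 100 were kept, controls apart (15925 of 22690 and 17250 of 22575), and log2(scaled signal + 16) was fitted with limma 3.58.1 (lmFit, eBayes with trend) in R 4.3.3. P-values are 2-sided and Benjamini-Hochberg adjusted over each array, with a threshold of 0.05. Separate fits held the mustard series, the animals without mustard, and all array A ears (vehicle against naive). Both ears of a naive animal were averaged in the latter fits. Python 3.11.15, pandas 2.3.3, numpy 2.4.6, scipy 1.17.1 and matplotlib 3.10.9 served for the rest. The fit was tested on simulated data.

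Members and lists were chosen with earlier results of these data known. Named are members called in any comparison, up to 3 per role with the widest range over vehicle ears, and the 10 genes on each array nearest the hair score. Ears with 1 animal number are paired, since they come from 1 animal. With group means removed, the left-right r had a median of 0.12 on array A and 0.07 on array B over all probe sets. Apart from the averaged naive ears, the main fits treated ears as separate and did not use the pairing. Of the refits, only those with an animal block used it. Array data have no read depth, and precision depends on how many ears a group has and on the spread between ears. Symbols come from the platform annotation. On array A 20393 probe sets name 1 gene, 691 several and 1606 none, and on array B 14674, 245 and 7656.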

Additional observations from a re-analysis of the deposited data

Results flagged for a closer look

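In 248 groups of 4 to 10 ears over the members described, 12 had a highest or lowest ear farther from its neighbour than Dixon's 95% limit allows, and chance gives about 1 in 20. Values are log2(scaled signal + 16), with the signal and that of the nearest ear. In mustard ears the right ear of animal 36 stood high in Krt28 (11.75; 3434 against 337), Msx2 on array A (8.49; 344 against 155) and Krtap16-3 (8.08; 255 against 93.4). The right ear of animal 10, given dimercaprol and mustard, stood high in Krtap16-3 (8.13; 264 against 93.6) and Krtap5-2 (8.42; 326 against 163).

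With octylhomovanillamide alone, animal 519 was high in Krtap5-2 (9.81; 884 against 378) and animal 516 low in Msx2 (7.98; 236 against 280). With indomethacin alone, animal 512 was high in Foxn1 (8.64; 383 against 301), animal 511 low in Krt36 (7.14; 125 against 153) and animal 515 low in Krtap19-9b (7.45; 159 against 264). Krtap13 was low in animal 33 after octylhomovanillamide and mustard (5.84; 41.4 against 136) and in the right ear of naive animal 503 (7.06; 118 against 142).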

How the results depend on the processing

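Of 222 refits of the calls of single members, 175 kept direction and call, 46 lost the call and 1 changed sign: Krt84 in mustard against vehicle was −0.0032 without rescaling. Of 185 refits of counts and medians, 159 stayed within their limits. Without rescaling, members called went from 4 to 8 (mustard against vehicle), 1 to 12 (dimercaprol and mustard against mustard), 0 to 6 and 0 to 5 (indomethacin and octylhomovanillamide and mustard against mustard), 0 to 1 (dimercaprol and mustard against vehicle) and 11 to 5 (vehicle against naive). There the median of all array A probe sets moved to −0.52, 0.76, 0.45 and 0.63 in the first 4 of these, so these counts include a shift of the whole array. In mustard against vehicle the count was 1 with the Gapdh ratio in the fit, 2 with brightness, 2 at a minimum signal of 300 (fewer probe sets tested), 1 with the replicate block of animals and 2 without the dim mustard ears of animals 5 and 37. In dimercaprol and mustard against mustard it was 0, 0 and 0 with the Gapdh ratio, brightness and the replicate block, 0 without animals 5 and 37 and 2 with quantile normalization. Quantile normalization gave 1 in indomethacin and mustard against mustard. A minimum of 300 gave 1 in indomethacin and mustard against vehicle and 4 in vehicle against naive. The cause of these changes was not tested, apart from the settings' own construction. Leaving out 1 ear or naive animal at a time gave 2 to 4 members in mustard against vehicle, 0 to 3 in dimercaprol and mustard against mustard, 0 to 1 in each of indomethacin and mustard against mustard, octylhomovanillamide and mustard against mustard, and octylhomovanillamide and mustard against vehicle (1 without animal 33), and 3 to 14 in vehicle against naive. This was done only for groups of at most 5 animals. No ear was left out in turn from vehicle, dimercaprol and mustard, or indomethacin and mustard. A fixed animal block could not be fitted for the drugs alone and was not run. As a random block, the animal gave 4 members in mustard against vehicle and 11 in vehicle against naive. The share of all probe sets called in each of these refits is not given here. A change in a count is therefore not a result about the members.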
